A study of Mus musculus with 12 samples.

Results

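CA1 and the dentate gyrus (DG) of the mouse hippocampus were compared in formalin-fixed frozen sections. The replicates were chosen by their labelled region and histological condition, which gave 4 of CA1 and 4 of DG, or 8 of the 48 replicates and 2 of the 12 libraries of the series. Unique molecular identifiers (UMIs), random tags that mark single cDNA molecules before they are amplified, were counted per gene. Of 32546 genes, 9385 had at least 10 UMIs summed over the 8 replicates and were tested.

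The study measured RNA with photo-isolation chemistry (PIC), in which RNA is copied inside the section from caged primers and only cDNA uncaged by ultraviolet light is amplified and sequenced with CEL-seq2. Both groups came from male ICR mice 8 weeks old, whose brains were fixed with 4% PFA (paraformaldehyde) and frozen, and the sections were permeabilized with TE (Tris-EDTA) buffer at 70 °C for 1 h. A digital mirror device shaped the light to a region outlined on a nuclear stain, so each sample holds every cell type inside the outline. The 4 replicates of a region were barcoded and pooled in 1 library, so region and library cannot be told apart, and the labels do not tie replicates, which the paper calls biological replicates, to mice.

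CA1 pyramidal cells receive the Schaffer collaterals of CA3 and carry the output of the hippocampus to the subiculum and the neocortex. Granule cells of the DG receive the perforant path from the entorhinal cortex, excite CA3 through the mossy fibres, and are still born in adult mice, and the homeobox factor Prox1 maintains their identity. White matter of the alveus and the corpus callosum lies against CA1, and the thalamus and habenula lie beneath the DG.

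CA1 replicates 1 to 4 held 69037, 180873, 117298 and 54201 UMIs, and DG replicates 1 to 4 held 134149, 307145, 242431 and 109002. Replicate 4 was the shallowest and replicate 2 the deepest in both regions, and the ranges of the regions overlapped. The means were 105352 ± 57100.3 in CA1 and 198182 ± 92887 in DG (SD, n = 4 each, two-sided exact permutation p = 0.171). Genes with at least 1 UMI numbered 8527, 11479, 10169 and 7742 in CA1 and 10527, 13053, 12239 and 9894 in DG (exact permutation p = 0.143). Transcripts of the mitochondrial genome took 9.78, 5.60, 6.36 and 9.61% of UMIs in CA1 and 9.00, 5.78, 6.72 and 9.94% in DG, so the shares overlapped. A test of 4 against 4 cannot give an exact p below 0.0286. Levels are given below as CPM, the counts of a replicate scaled to a total of 1000000 UMIs, and log2 fold changes have CA1 over DG, ± SE of the fit.

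Genes that define both regions lay on the labelled sides. Wfs1, which encodes the endoplasmic reticulum membrane protein wolframin and marks CA1 pyramidal cells, stood at 174, 453, 375 and 221 CPM in CA1 replicates 1 to 4 and at 7.45, 117, 37.1 and 73.4 CPM in DG replicates 1 to 4. Every CA1 replicate was above every DG replicate (log2 fold change 2.29 ± 0.27, adjusted p = 1.27e-15). Prox1 stood at 57.9, 66.3, 42.6 and 36.9 CPM in CA1 and at 701, 742, 738 and 486 CPM in DG. The 4 DG replicates were all far above the 4 CA1 replicates (log2 fold change -3.68 ± 0.27, adjusted p = 2.76e-38). Dkk3, a secreted glycoprotein of the Dickkopf family, had 362, 409, 469 and 849 CPM in CA1 and 127, 117, 189.7 and 110.1 CPM in DG (log2 fold change 1.77 ± 0.22, adjusted p = 4.78e-13). Ociad2, an OCIA-domain protein, had 666, 448, 588 and 683 CPM in CA1 and 283, 176, 148 and 239 CPM in DG (log2 fold change 1.45 ± 0.21, adjusted p = 4.27e-10). Neither gene overlapped between regions. Pdzd2, a PDZ-domain protein of granule cells, had 72.4, 0, 25.6 and 18.4 CPM in CA1 and 112, 140.0, 115 and 193 CPM in DG (log2 fold change -2.65 ± 0.43, adjusted p = 9.87e-08), with every DG replicate above every CA1 replicate. Gapdh, a glycolytic enzyme often used as a reference, gave only 7 UMIs in CA1 and 11 in DG and was not called (adjusted p = 0.928). In GRCm38, Wfs1 lies at chr5:36966104-36989205, - strand, and Prox1 at chr1:190118035-190170714, - strand.

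**Figure D1:**
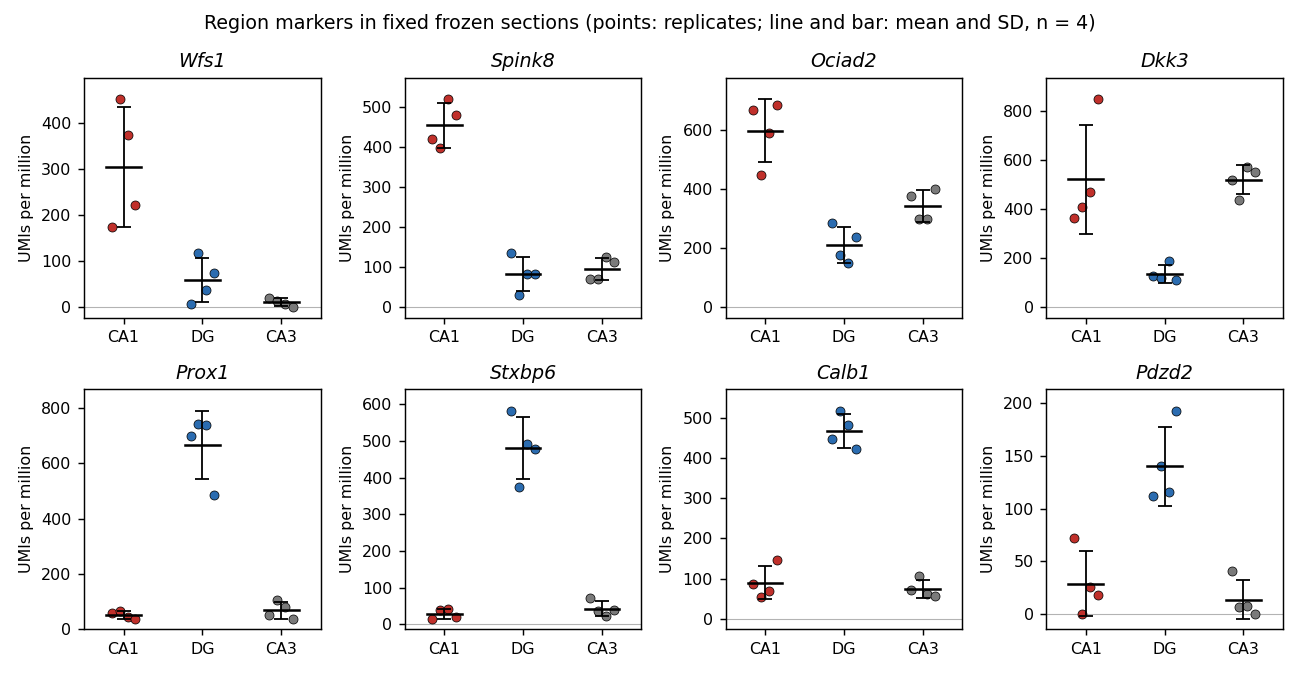
CPM of 8 region-defining genes in each of the 4 replicates of CA1, DG and CA3 (points), with mean (line) and SD (bar). Wfs1 lies between 174 and 453 CPM in CA1 and between 7.45 and 117 CPM in DG, and Prox1 lies between 36.9 and 66.3 CPM in CA1 and between 486 and 742 CPM in DG.

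Across all tested genes, edgeR called 764 of 9385 (8.14%) at an adjusted p under 0.05, 315 (3.36%) toward CA1, where CA1 was higher, and 449 (4.78%) toward DG. Myelin genes such as Mal and markers of CA1 pyramidal cells such as Spink8 and Ccn3 were among the largest differences toward CA1. Granule-cell genes such as C1ql2 and Dsp, together with Zic1 and Prkcd, which mark thalamic and habenular neurons, were among the largest toward DG. Replicates of the regions did not overlap for 1082 tested genes (11.5%), and 578 of the called genes were of this kind, 229 toward CA1 and 349 toward DG. The median log2 fold change was -0.11 over all tested genes, which with the shares above is the background of every gene list, 1.33 over calls higher in CA1 and -1.57 over calls higher in DG. Calls fell on 718 of 8880 tested protein-coding genes (8.09%), 27 of 197 pseudogenes (13.7%) and 14 of 167 long noncoding RNAs (8.38%). At 0 UMIs in CA1 were 42 of the called genes, and 1, Nts, was at 0 in DG. CA1 held 421409 UMIs in all and DG 792727, so 0 is reached more easily in CA1. The share of all tested genes at 0 was not set beside these counts. DESeq2 called 392 genes, 198 higher in CA1 and 194 higher in DG, edgeR's filterByExpr left 2774 genes and 501 calls, 261 and 240, and replicates thinned to 54201 UMIs each left 6409 genes and 300 calls, 140 and 160. Without CA1 replicate 2 the calls toward CA1 numbered 199. For the gene lists, counts that moved by more than 1.5-fold with DESeq2, with its size factors, without the filter, under filterByExpr, with CA3 in the fit, in thinned replicates, with UMIs corrected for sequences drawn more than once or without 1 replicate are given beside them. Thinned replicates and filterByExpr often test fewer genes of a list, so their number tested is given too. DESeq2 gave an adjusted p for 681 of the 764 called genes, so a lower list count with DESeq2 can include genes it did not test. Members of the gene lists were chosen with earlier results of these data known, so list counts and medians are no independent support. Fewer cells of a type and less RNA per cell cannot be told apart in these samples.

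**Figure D2:**
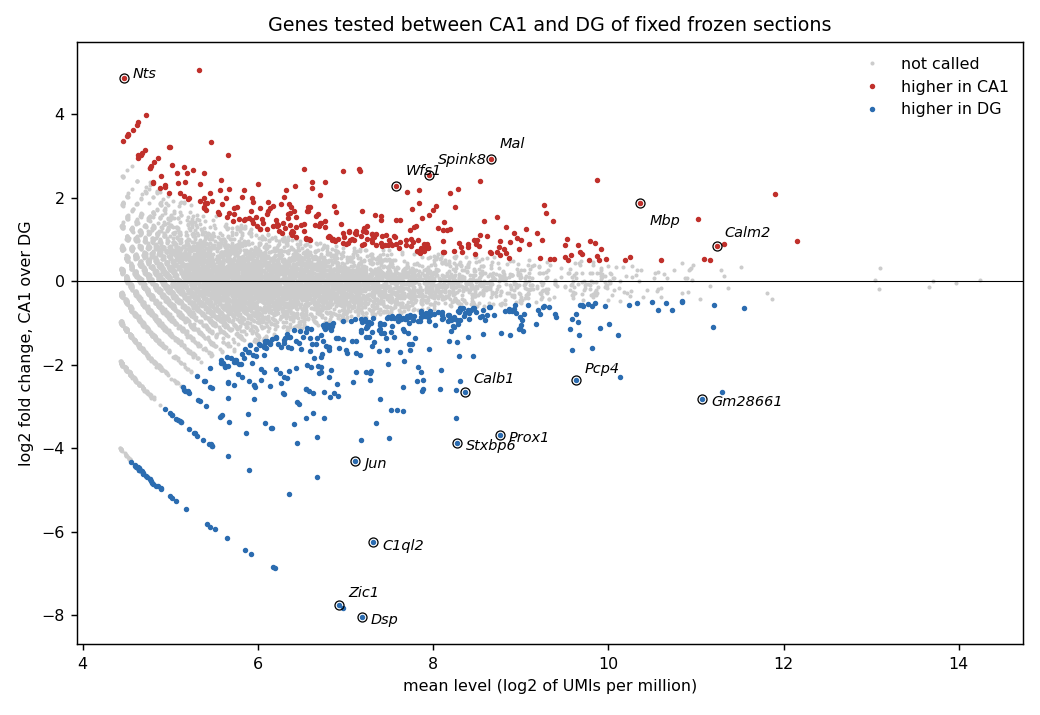
Log2 fold change of CA1 over DG against mean CPM on a log axis for the 9385 tested genes. The 315 genes called higher in CA1 lie above 0 and the 449 called higher in DG below 0, genes with 0 UMIs in a region are drawn at their fitted value, and circles mark genes by name.

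Granule-cell genes were nearly all higher in DG. Of 15 listed granule-cell genes, 14 passed the filter, and 12 were called higher in DG and 0 in CA1 (median log2 fold change -2.73, also with the genes at 0 set to their bounds, against -0.11 over all tested genes). The granule-cell count was 6 in thinned replicates (of 12 tested) and 7 under filterByExpr (of 8 tested). Summed over the list, CA1 replicates held 377, 387, 349.5 and 424 CPM and DG replicates 2713, 2937, 2899.8 and 2669.7 CPM. Each region's replicates lay close together, and DG was 7.30 times as high on average. Stxbp6, or amisyn, which binds SNARE proteins of exocytosis, had 14.5, 38.7, 42.6 and 18.4 CPM in CA1 and 581, 374, 491 and 477 CPM in DG (log2 fold change -3.87 ± 0.31, adjusted p = 1.16e-31). Calb1, the calcium buffer calbindin of mature granule cells, had 86.9, 55.3, 68.2 and 148 CPM in CA1 and 447, 518, 483 and 422 CPM in DG (log2 fold change -2.65 ± 0.27, adjusted p = 1.53e-20). Both genes were separate between regions. C1ql2, a secreted C1q-like protein of mossy fibre synapses, had 14.5, 0, 0 and 0 CPM in CA1 and 276, 234, 148 and 330.3 CPM in DG. With 1 UMI in CA1 against 181 in DG, its ratio of DG over CA1 was 96.2, with a 95% interval from 17.1 to 3821.

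Several DG genes had no UMI at all in CA1. Dsp, a plaque protein of desmosomes, had 0 UMIs in CA1 and 179, 231, 259.9 and 147 CPM in DG replicates 1 to 4, so DG was at least 30.8-fold higher, with 3 counts assumed for the 4 CA1 replicates together. Plk5, a polo-like kinase of neurons, had 37.3, 42.3, 82.5 and 18.3 CPM in DG against 0 (at least 7.09-fold). Lgr6, a receptor for R-spondins, had 29.8, 55.3, 86.6 and 36.7 CPM against 0 (at least 8.15-fold). All 4 DG replicates held each of these genes. Acvr1c, an activin receptor-like kinase, had 104, 52.1, 70.1 and 64.2 CPM in DG against 0 (at least 9.57-fold). Napepld, which releases N-acylethanolamines from membrane lipids, had 82.0, 101, 78.4 and 110.1 CPM against 0 (at least 12.9-fold). These DG replicates were again all above 0. Lrrtm4, a leucine-rich adhesion protein of granule-cell synapses, was at 14.5, 0, 0 and 0 CPM in CA1 and 119, 140.0, 103 and 27.5 CPM in DG, a ratio of 46.2, with a 95% interval from 8.09 to 1847. The genes just named met a naming rule that asks for replicates without overlap, so the agreement of their replicates is no separate support. Floors and intervals cover counting error only. Under 10 UMIs in CA1 were 157 of the 449 genes higher in DG, and under 10 in DG were 44 of the 315 higher in CA1. CA1 held fewer UMIs in all, so low counts are reached more easily there.

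Toward CA1, the pyramidal-cell list was uniform. Of 12 listed genes, 9 passed the filter and all 9 were called higher in CA1 (median log2 fold change 2.29), while Lefty1 and Gpr161 fell under it and Nov, an older symbol of Ccn3, was not in the table. The summed level was 2158, 2488, 2523 and 2583 CPM in CA1 and 529, 511, 536 and 431 CPM in DG. CA1 replicates were all above DG replicates, 4.86 times as high on average. Spink8, a Kazal-type serine protease inhibitor, had 420.1, 398, 520.0 and 479.7 CPM in CA1 and 134, 29.3, 82.5 and 82.6 CPM in DG (log2 fold change 2.55 ± 0.25, adjusted p = 4.07e-21). Pou3f1, a POU transcription factor, had 304, 426, 367 and 387 CPM in CA1 and 82.0, 114, 99.0 and 82.6 CPM in DG (log2 fold change 1.88 ± 0.24, adjusted p = 2.47e-12). Neither gene overlapped between regions. Ccn3, a matricellular protein, Man1a, a mannosidase of the Golgi, Mpped1, a metallophosphoesterase, and Pex5l, an accessory subunit of HCN channels, had log2 fold changes of 2.70 ± 0.38, 1.79 ± 0.35, 2.15 ± 0.26 and 2.12 ± 0.23. Fibcd1, a receptor that binds chitin, was 6.30-fold higher in CA1 (adjusted p = 0.00167) but not called in thinned replicates (adjusted p = 0.288) or without CA1 replicate 3 (0.0506), and its adjusted p ran from 0.000922 to 0.334 over all settings run. The log2 fold change of Fibcd1 fell to 1.86 in thinned replicates.

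Genes shared by CA1 and CA3 pyramidal cells also lay toward CA1. In that list of 4, Dkk3, Ociad2 and Neurod6, a basic helix-loop-helix factor, were called higher in CA1 and 1 gene, Spock1, a testican proteoglycan, higher in DG (median log2 fold change 1.50). Neurod6 had 709.8, 619, 682 and 609 CPM in CA1 and 276, 163, 280.5 and 128 CPM in DG, with no overlap (log2 fold change 1.55 ± 0.20, adjusted p = 2.75e-12). The call of Spock1 was near the threshold (log2 fold change -0.91 ± 0.31, adjusted p = 0.0488) and lost with DESeq2 (adjusted p = 0.206), with DESeq2 size factors (0.0705), without the filter on low counts (0.107), under filterByExpr (0.108), in thinned replicates (0.0576), with corrected UMIs (0.0603), without CA1 replicates 1 (0.234), 2 (0.0816), 3 (0.0511) and 4 (0.123) or without DG replicates 1 (0.241), 3 (0.0667) and 4 (0.171), within 0.0114 to 0.241 over all settings run.

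Markers of CA2 and CA3 pyramidal cells were lower in CA1 or not called. Pcp4, a calmodulin-binding peptide of CA2 cells, had 289.7, 160.3, 332 and 184 CPM in CA1 and 1141, 1439, 1060.1 and 1073 CPM in DG (log2 fold change -2.37 ± 0.20, adjusted p = 2.91e-29). All DG replicates were above all CA1 replicates. Of 7 CA2 genes 5 passed the filter, with 3 called higher in DG and 0 in CA1, a median log2 fold change of -2.37 and of -2.07 with a gene at 0 UMIs in CA1 at its bound. St18, a zinc finger factor, was the 1 gene called among 4 tested of 9 CA3 genes, at 1 UMI in CA1 and 37 in DG, a ratio of DG over CA1 of 19.7, with a 95% interval from 3.32 to 798, and the list had a median of -1.66. Calb2, or calretinin, a calcium buffer of hilar mossy cells and immature granule cells, had 0, 5.53, 17.1 and 0 CPM in CA1 and 89.5, 104, 128 and 128 CPM in DG, and its ratio of DG over CA1 was 15.8, with a 95% interval from 5.22 to 77.9. It was the 1 called of 2 tested mossy-cell genes of 4 listed (median -1.54). The CA2 calls higher in DG numbered 1 with DESeq2, under filterByExpr (of 1 tested), in thinned replicates (of 2 tested) or without CA1 replicate 3 or DG replicate 3. St18 was not tested under filterByExpr or in thinned replicates, and the other mossy-cell gene, Ajap1, was called higher in CA1 under filterByExpr.

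Genes of newborn granule cells were seen at low counts on the DG side. Sox11, a transcription factor of immature neurons, had 57.9, 99.5, 51.2 and 55.3 CPM in CA1 and 201, 143, 252 and 174 CPM in DG (log2 fold change -1.46 ± 0.31, adjusted p = 9.48e-05). Neurod1, which drives neuronal differentiation, had a log2 fold change of -2.18 ± 0.41 (adjusted p = 6.37e-06), a call lost in thinned replicates (adjusted p = 0.0648), within 1.72e-06 to 0.0648 over all settings run. Of 10 neurogenesis genes 6 passed the filter, and 3 were called higher in DG and 0 in CA1 (median -1.76, or -1.43 with a gene at 0 UMIs in CA1 at its bound). Their count was 1 under filterByExpr (of 1 tested) or in thinned replicates (of 4 tested). Mki67 and Top2a of dividing cells, Eomes of intermediate progenitors and Draxin, a secreted guidance protein, were at 0 UMIs in CA1 and under the filter. For Cajal-Retzius cells, 2 of 5 genes were tested and neither was called (median 0.13).

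Myelin genes were higher in CA1, and Cldn11 and Mal had the smallest p values on that side. Mal, a proteolipid of compact myelin, had 666, 1039, 520.0 and 793 CPM in CA1 and 112, 111, 90.7 and 55.0 CPM in DG (log2 fold change 2.94 ± 0.22, adjusted p = 5.78e-37). Cldn11, the claudin of myelin tight junctions, had 1391, 2366, 1194 and 1439 CPM in CA1 and 276, 267, 259.9 and 394 CPM in DG (log2 fold change 2.42 ± 0.18, adjusted p = 2.25e-37). In both genes each CA1 replicate was above each DG replicate. Mag, Mog, Mobp, Opalin, Cnp, Mbp and Cryab, which encode myelin proteins, an enzyme of myelin and a small heat shock protein, had log2 fold changes from 1.71 to 2.69. Fa2h, which hydroxylates the fatty acids of myelin lipids, was 6.21-fold and Qk, an RNA-binding protein of oligodendrocytes, 3.09-fold higher in CA1 (adjusted p = 1.4e-13 and 3.11e-16).

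Of 13 listed oligodendrocyte and myelin genes, 12 were tested and 11 called higher in CA1 (median log2 fold change 2.30 against -0.11 over all tested genes). The summed level was 9879, 20224, 10998 and 10812 CPM in CA1 and 2348, 3406, 3127 and 2514 CPM in DG, highest in CA1 replicate 2 and lower in all DG replicates than in any of CA1. Ermn, a cytoskeletal protein of oligodendrocytes, was 3.43-fold higher in CA1 (adjusted p = 2.1e-05) but not called without CA1 replicate 2 (adjusted p = 0.118), within 4.58e-06 to 0.118 over all settings run. Olig1, a lineage factor, had 0 UMIs in DG and was under the filter, and Olig2 was not called. Of 3 precursor genes 2 were tested and neither was called (median 0.37). The part of oligodendrocyte RNA in the other differences between CA1 and DG was not tested.

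**Figure D3:**
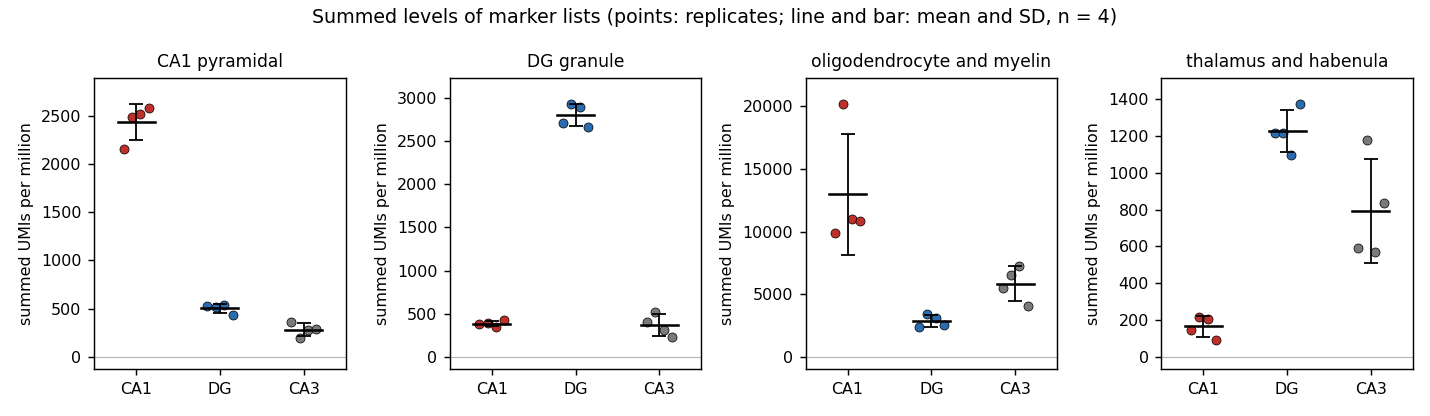
Summed CPM of 4 marker lists in each of the 4 replicates of CA1, DG and CA3 (points), with mean (line) and SD (bar). The mean is 384 CPM in CA1 and 2805 CPM in DG for DG granule cells, and 12978 and 2849 CPM for oligodendrocytes and myelin.

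Thalamic and habenular markers were on the DG side. Zic1, a zinc finger factor, had 0 UMIs in CA1 and 112, 186, 181 and 211 CPM in DG, at least 24.6-fold higher. Prkcd, a protein kinase C of thalamic relay neurons, had 0 UMIs in CA1 and 96.9, 111, 57.7 and 119 CPM in DG, at least 13.1-fold higher. Tcf7l2, a Wnt pathway factor of thalamic neurons, had 0, 38.7, 51.2 and 18.4 CPM in CA1 and 291, 260.5, 223 and 349 CPM in DG (log2 fold change -3.08 ± 0.34, adjusted p = 1.23e-16). No DG replicate of these genes overlapped a CA1 replicate. Rora, an orphan nuclear receptor, had 43.5, 55.3, 51.2 and 0 CPM in CA1 and 194, 283, 165 and 119 CPM in DG (log2 fold change -2.20 ± 0.34, adjusted p = 9.04e-09). Slc17a6, the vesicular glutamate transporter VGLUT2, had a log2 fold change of -2.45 ± 0.40. Lhx9, a LIM homeobox factor, and Synpo2, an actin-binding protein, had 1 UMI each in CA1, with ratios of DG over CA1 of 15.9, with a 95% interval from 2.65 to 651, and of 19.7, with a 95% interval from 3.32 to 798. Of 15 listed genes 12 were tested, with 10 called higher in DG and 0 in CA1 (median -2.78, or -2.60 with genes at 0 at their bounds). The count was 4 under filterByExpr (of 4 tested) and 6 in thinned replicates (of 8 tested). The summed level was 145, 216, 205 and 92.2 CPM in CA1 and 1215, 1218, 1097 and 1376 CPM in DG, with every DG replicate above every CA1 replicate. Pou4f1 and Chrnb4, which define habenular neurons, were at 0 UMIs in CA1 and under the filter, and Tcf7l2 was the most abundant. The part of these cells in the other differences toward DG was not tested.

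Among interneuron genes, 11 of 12 were tested, with 3 called higher in CA1 and 1 in DG (median -0.20). Sst, the peptide somatostatin, had 391, 420.2, 273 and 553 CPM in CA1 and 164, 111, 227 and 147 CPM in DG (log2 fold change 1.23 ± 0.23, adjusted p = 3.42e-06). Cck, the peptide cholecystokinin, had 913, 1327, 1321 and 1089 CPM in CA1 and 507, 560.0, 631 and 642 CPM in DG (log2 fold change 0.95 ± 0.17, adjusted p = 1.66e-06). Both peptides were separate between regions. Adarb2, an RNA-binding protein of interneurons, was 4.20-fold higher in DG (adjusted p = 0.000227), a call lost in thinned replicates (adjusted p = 0.139), within 0.000124 to 0.140 over all settings run. The count of this list toward DG was 0 under filterByExpr (of 4 tested) or in thinned replicates (of 10 tested) and 2 without DG replicate 2.

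Among 11 astrocyte genes, 10 were tested, with 4 called higher in DG and 0 in CA1 (median -0.45). Summed levels were 1970.0, 2283, 2617 and 1771 CPM in CA1 and 2400.3, 3197, 2916 and 2743 CPM in DG, and they overlapped. Slc1a2, the main glutamate transporter of astrocytes and the most abundant of the list, was not called, and no gene of the list was separate between regions. Astrocyte calls higher in DG numbered 0 with DESeq2 and 1 under filterByExpr (of 7 tested), in thinned replicates (of 10 tested) or without CA1 replicate 1 or DG replicates 2 or 3 and 2 without the filter on low counts or without CA1 replicate 4, and their part in other differences was not tested.

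No gene was called among 7 tested of 10 microglia genes (median -0.19), 6 tested of 12 endothelial and mural genes (-0.58), 2 tested of 8 choroid plexus and ependyma genes (-0.06) and 1 tested of 5 erythrocyte genes (-0.21). Col1a2, a fibrillar collagen with 0 UMIs in CA1, was the 1 gene called among 3 tested of 8 meningeal genes (median -2.59, or -1.20 at its bound). That count was 0 with DESeq2, without the filter on low counts, under filterByExpr (of 1 tested), in thinned replicates (of 1 tested) or without CA1 replicates 1, 2, 3 or 4 or DG replicates 1, 3 or 4. DESeq2 gave no adjusted p for Col1a2. Nts, the peptide neurotensin, had 29.0, 22.1, 25.6 and 18.4 CPM in CA1 and 0 UMIs in DG, at least 6.27-fold higher in CA1, and was the 1 gene called among 9 tested neocortex and subiculum genes (median -0.74). The count of that list was 0 with DESeq2, under filterByExpr (of 0 tested) or in thinned replicates (of 5 tested) and 2 without CA1 replicate 4 toward CA1, and 2 without CA1 replicate 2 toward DG. DESeq2 gave no adjusted p for Nts either.

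Immediate early genes, which neurons transcribe within minutes of activity, were divided between the regions. Egr1, a zinc finger factor, had 289.7, 171, 307 and 258 CPM in CA1 and 67.1, 68.4, 66.0 and 138 CPM in DG (log2 fold change 1.59 ± 0.28, adjusted p = 8.7e-07). Homer1, a scaffold of the postsynaptic density, had 695, 475, 520.0 and 738 CPM in CA1 and 276, 254, 285 and 349 CPM in DG (log2 fold change 0.97 ± 0.20, adjusted p = 5.08e-05). Each was higher in every CA1 replicate than in any DG replicate. Jun, a subunit of the AP-1 factor, lay the other way, at 14.5, 11.1, 8.53 and 0 CPM in CA1 and 209, 176, 198 and 211 CPM in DG (log2 fold change -4.30 ± 0.48, adjusted p = 5.14e-17), again without overlap. Counts per gene do not tell transcript forms of Homer1 apart. Of 20 genes 17 were tested, with 7 called higher in CA1 (Arc, Egr1, Fos, Homer1, Nr4a1, Nr4a2 and Nr4a3) and 4 in DG, Jun and Bdnf among them (median 0.93). The count was 3 in thinned replicates (of 12 tested) and 4 under filterByExpr (of 8 tested) toward CA1, and 1 with DESeq2, in thinned replicates (of 12 tested) or without CA1 replicate 4 and 2 without the filter on low counts, under filterByExpr (of 8 tested) or without CA1 replicates 1 or 3 or DG replicates 1, 3 or 4 toward DG.

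Nr4a2, an orphan nuclear receptor, had 159, 122, 171 and 166 CPM in CA1 and 74.5, 42.3, 74.2 and 45.9 CPM in DG, without overlap (log2 fold change 1.29 ± 0.33, adjusted p = 0.00221), a call lost in thinned replicates (adjusted p = 0.134). Nr4a1, of the same family, was 3.40-fold higher in CA1 (adjusted p = 0.000867) but not called in thinned replicates (adjusted p = 0.153) or without DG replicate 2 (0.0563). Nr4a3, also of that family, was 2.01-fold higher in CA1 (adjusted p = 0.0186) but not called with DESeq2 (adjusted p = 0.0639), without CA1 replicate 3 (0.0989) or without DG replicates 1 (0.0575) and 3 (0.0643). Arc, a protein of the synaptic cytoskeleton, was 6.68-fold higher in CA1 (adjusted p = 0.00243) but not called without CA1 replicate 2 (adjusted p = 0.150). Fos, a partner of Jun, was 4.82-fold higher in CA1 (adjusted p = 0.0372) but not called without the filter on low counts (adjusted p = 0.0682), in thinned replicates (0.682), without CA1 replicates 2 (0.475) and 4 (0.0858) or without DG replicates 1 (0.0507), 2 (0.102) and 3 (0.130). The log2 fold change of Fos fell to 1.57 without CA1 replicate 2 and to 1.13 in thinned replicates. Bdnf, a neurotrophin released at synapses, was 1.75-fold higher in DG (adjusted p = 0.0173) but not called with DESeq2 (adjusted p = 0.104), in thinned replicates (0.183), without CA1 replicates 1 (0.0610) and 4 (0.0666) or without DG replicates 1 (0.0513) and 3 (0.0571). Over all settings run, the adjusted p ran from 0.000795 to 0.134 for Nr4a2, from 0.000224 to 0.165 for Nr4a1, from 0.00685 to 0.0989 for Nr4a3, from 0.000709 to 0.150 for Arc, from 0.0184 to 0.755 for Fos and from 0.00567 to 0.183 for Bdnf.

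Promoters of the early genes called higher in CA1 are shown because the cyclic AMP response element, a known entry point of activity signals in these genes, contains the letters TGACG, or CGTCA on the other strand. RefSeq promoters of 300 bases (250 before the start and 50 after it) held a match in 6837 of 32851 cases (20.8%). The table had promoters for 5 of the 7 genes higher in CA1, and each of the 5 had a promoter with a match (5 of 6 promoters). All 4 genes higher in DG were in it, and 1 of the 4, Bdnf, had a promoter with a match (1 of 10 promoters, 7 of them of Bdnf), while 4 of the 6 uncalled genes were in the table, all 4 with a match (4 of 4 promoters). Capitals mark the matches in 4 of these promoters, read 5′ to 3′ on the gene's strand in GRCm38.p6, and a match is only a description. The Fos promoter is chr12:85473640-85473939 on the + strand, that of Nr4a1 chr15:101266596-101266895 on the + strand, that of Nr4a2 chr2:57123954-57124253 on the - strand and that of Nr4a3 chr4:48045055-48045354 on the + strand, with 2, 4, 4 and 4 matches.
Fos: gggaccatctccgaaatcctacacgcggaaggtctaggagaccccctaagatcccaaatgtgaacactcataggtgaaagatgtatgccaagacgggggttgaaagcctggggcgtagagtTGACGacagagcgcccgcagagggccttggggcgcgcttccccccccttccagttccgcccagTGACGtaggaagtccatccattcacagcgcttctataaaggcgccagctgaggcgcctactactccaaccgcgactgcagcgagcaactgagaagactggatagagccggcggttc
Nr4a1: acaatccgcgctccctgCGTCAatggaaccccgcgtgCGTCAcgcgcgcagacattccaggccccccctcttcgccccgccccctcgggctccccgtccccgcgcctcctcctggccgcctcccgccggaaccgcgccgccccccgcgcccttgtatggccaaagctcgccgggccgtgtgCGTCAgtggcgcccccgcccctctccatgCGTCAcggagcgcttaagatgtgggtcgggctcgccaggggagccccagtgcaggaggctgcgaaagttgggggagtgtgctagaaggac
Nr4a2: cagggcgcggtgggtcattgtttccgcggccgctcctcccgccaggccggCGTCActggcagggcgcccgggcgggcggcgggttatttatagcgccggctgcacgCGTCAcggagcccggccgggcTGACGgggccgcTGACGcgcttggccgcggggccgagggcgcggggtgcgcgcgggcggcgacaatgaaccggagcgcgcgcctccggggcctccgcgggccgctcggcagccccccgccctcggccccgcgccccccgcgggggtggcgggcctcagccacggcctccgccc
Nr4a3: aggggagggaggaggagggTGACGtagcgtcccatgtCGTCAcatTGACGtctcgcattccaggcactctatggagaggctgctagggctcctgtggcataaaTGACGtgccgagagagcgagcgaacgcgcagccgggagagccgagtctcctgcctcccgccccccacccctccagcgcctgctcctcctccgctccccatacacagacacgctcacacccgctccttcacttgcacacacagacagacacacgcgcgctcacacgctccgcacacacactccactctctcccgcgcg

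Receptor genes for fast glutamate transmission included NMDA receptor subunits called in both directions. Grin2a, an NMDA receptor subunit of mature synapses, had 1333, 1001, 1296 and 1365 CPM in CA1 and 753, 674, 619 and 725 CPM in DG (log2 fold change 0.77 ± 0.17, adjusted p = 0.000218). Every CA1 replicate was above every DG replicate. Grin2b, its counterpart enriched in young synapses, was 1.49-fold higher in CA1 (adjusted p = 0.0201) but not called without DG replicate 3 (adjusted p = 0.130), within 0.000170 to 0.130 over all settings run. AMPA and NMDA receptor subunits had 9 of 11 genes tested, 2 called higher in CA1 and 1 in DG (median 0.33, or 0.33 with a gene at 0 UMIs in CA1 at its bound). The 1 was Grin2d, another NMDA receptor subunit, with 0 UMIs in CA1 and 29.8, 6.51, 16.5 and 18.3 CPM in DG, at least 2.13-fold higher (adjusted p = 0.0487), a call lost with DESeq2 size factors (adjusted p = 0.0535), without the filter on low counts (0.0967), with corrected UMIs (0.0516), without CA1 replicates 1 (0.0911), 2 (0.193), 3 (0.128) and 4 (0.0927) or without DG replicates 1 (0.126), 3 (0.0918) and 4 (0.0676). DESeq2 gave no adjusted p for Grin2d. The AMPA receptor subunit Gria2 was the most abundant and not called. Their count was 1 without DG replicate 3 toward CA1, and 0 with DESeq2, with DESeq2 size factors, without the filter on low counts, under filterByExpr (of 5 tested), in thinned replicates (of 7 tested), with corrected UMIs or without CA1 replicates 1, 2, 3 or 4 or DG replicates 1, 3 or 4 toward DG. Among kainate receptor genes 6 of 7 were tested, with 0 called higher in CA1 and 1 in DG (median -0.44). The 1 was Neto1, an auxiliary subunit, with a ratio of DG over CA1 of 19.7, with a 95% interval from 3.32 to 798. The kainate count was 1 with DESeq2 size factors, under filterByExpr (of 1 tested) or without DG replicate 1 toward CA1, and 0 under filterByExpr (of 1 tested) toward DG.

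Gabra4, a GABA-A receptor subunit of granule cells, had 188, 216, 188 and 111 CPM in CA1 and 298, 381, 318 and 358 CPM in DG (log2 fold change -0.92 ± 0.23, adjusted p = 0.00195). Every replicate of the higher region was above the other region in Gabra4. Its call was lost in thinned replicates (adjusted p = 0.0889), within 0.000150 to 0.0889 over all settings run. GABA-A receptor subunits had 11 of 15 genes tested, with 1 called higher in CA1 and 1 in DG (median -0.25), and counts of 0 in thinned replicates (of 8 tested) or without CA1 replicate 3 or DG replicates 2 or 3 and 2 without CA1 replicate 2 or DG replicate 4 toward CA1, and of 0 in thinned replicates (of 8 tested) and 2 without CA1 replicate 2 toward DG. Metabotropic glutamate receptors had 6 of 8 genes tested, with 3 called higher in DG and 0 in CA1 (median -1.31, or -1.07 with a gene at 0 UMIs in CA1 at its bound). This count was 0 with DESeq2, under filterByExpr (of 1 tested), in thinned replicates (of 3 tested) or without DG replicate 3 and 1 without the filter on low counts or without CA1 replicates 1, 2 or 3 or DG replicate 2 toward DG, and 1 under filterByExpr (of 1 tested) or without CA1 replicate 1 toward CA1.

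Of 39 neuromodulator receptor genes, 23 were tested, with 2 called higher in CA1 and 1 in DG (median 0.06). Chrm3, a muscarinic acetylcholine receptor, had 145, 111, 136 and 111 CPM in CA1 and 37.3, 32.6, 33.0 and 27.5 CPM in DG (log2 fold change 1.85 ± 0.38, adjusted p = 6.82e-05), a call lost in thinned replicates (adjusted p = 0.0625), within 2.85e-05 to 0.0625 over all settings run. Every replicate of the higher region was above the other region in Chrm3. Npy2r, a receptor for neuropeptide Y, had 0, 11.1, 17.1 and 18.4 CPM in CA1 and 82.0, 74.9, 49.5 and 82.6 CPM in DG (log2 fold change -2.53 ± 0.59, adjusted p = 0.000633), a call lost in thinned replicates (adjusted p = 0.0688), within 0.000401 to 0.0861. Receptor calls higher in CA1 numbered 0 in thinned replicates (of 10 tested) and 1 with DESeq2, under filterByExpr (of 4 tested) or without CA1 replicates 2 or 3 or DG replicates 2 or 3, and those higher in DG 0 under filterByExpr (of 4 tested) or in thinned replicates (of 10 tested).

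Calcium signalling genes were called in both directions. Calm2, a gene of calmodulin, had 3013, 3091, 3120.3 and 3376 CPM in CA1 and 1744, 1563, 1699 and 1669.7 CPM in DG (log2 fold change 0.85 ± 0.16, adjusted p = 7.43e-06). Ppp3r1, the regulatory subunit of calcineurin, had 724, 1028, 1015 and 996 CPM in CA1 and 499, 544, 491 and 459 CPM in DG (log2 fold change 0.86 ± 0.18, adjusted p = 4.74e-05). Replicates of the regions did not overlap in Calm2 or Ppp3r1. On the DG side, Ncald, a neuronal calcium sensor, had 86.9, 71.9, 59.7 and 36.9 CPM in CA1 and 268, 397, 445 and 404 CPM in DG (log2 fold change -2.57 ± 0.28, adjusted p = 2.05e-17). Camk2d, a calcium/calmodulin-dependent kinase, was 6.18-fold higher in DG (adjusted p = 8.33e-07). Of 30 genes for calcium binding and CaM kinases 29 were tested, with 4 called higher in CA1 and 7 in DG (median 0.08), and the calcineurin subunit Ppp3ca was the most abundant and not called. The counts were 2 with DESeq2, in thinned replicates (of 26 tested) or without CA1 replicate 2 or DG replicate 3 toward CA1, and 4 with DESeq2, in thinned replicates (of 26 tested) or without CA1 replicate 4 or DG replicate 2 toward DG.

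Ion channels differed in single genes. Kcnq5, a subunit of the M current, had 145, 94.0, 162 and 92.2 CPM in CA1 and 74.5, 26.0, 37.1 and 36.7 CPM in DG (log2 fold change 1.55 ± 0.37, adjusted p = 0.000998). Every replicate of the higher region was above the other region in Kcnq5. Kcnd3, an A-type potassium channel, was 10.7-fold and Kcnc2, a fast delayed rectifier, 2.34-fold higher in DG (adjusted p = 4.43e-08 and 0.00260). Potassium channel genes had 37 of 40 tested, 4 called higher in CA1 and 5 in DG (median -0.17). Those toward CA1 numbered 1 in thinned replicates (of 33 tested) and 7 under filterByExpr (of 20 tested), and those toward DG 2 with DESeq2, under filterByExpr (of 20 tested), in thinned replicates (of 33 tested) or without CA1 replicates 2 or 3 and 3 without CA1 replicate 1 or DG replicates 2 or 3. Calcium, sodium and HCN channels had 25 of 31 tested, 4 called higher in CA1 and 2 in DG (median -0.07), with counts of 1 in thinned replicates (of 21 tested) and 2 with DESeq2, under filterByExpr (of 13 tested) or without CA1 replicate 3 or DG replicates 2 or 3 toward CA1, and of 0 with DESeq2, in thinned replicates (of 21 tested) or without CA1 replicate 2 or DG replicate 2 and 1 under filterByExpr (of 13 tested) or without CA1 replicates 1 or 3 or DG replicate 3 toward DG.

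Adhesion and guidance genes were called in both directions. Pcdh8, a protocadherin regulated by activity, had 43.5, 44.2, 17.1 and 18.4 CPM in CA1 and 186, 215, 227 and 312 CPM in DG (log2 fold change -2.83 ± 0.35, adjusted p = 3.03e-13). Pcdh20, another protocadherin, had 116, 60.8, 111 and 129 CPM in CA1 and 239, 234, 280.5 and 294 CPM in DG (log2 fold change -1.50 ± 0.28, adjusted p = 4.24e-06). Replicates of the regions did not overlap in Pcdh8 or Pcdh20. Cdh9, a cadherin of mossy fibre synapses, had a ratio of DG over CA1 of 14.1, with a 95% interval from 3.71 to 119. Cadherins and protocadherins had 19 of 24 genes tested, with 1 called higher in CA1 and 4 in DG (median -0.13). The cadherin count was 0 with DESeq2, under filterByExpr (of 11 tested), in thinned replicates (of 15 tested) or without CA1 replicate 2 toward CA1, and 2 under filterByExpr (of 11 tested) toward DG. Sema5a, a transmembrane semaphorin, had 0, 88.5, 34.1 and 18.4 CPM in CA1 and 373, 498, 483 and 477 CPM in DG, without overlap (log2 fold change -3.29 ± 0.29, adjusted p = 9.51e-27). Ntng1, a netrin-G adhesion protein, was 13.3-fold higher in DG (adjusted p = 9.14e-11). Axon guidance genes had 38 of 47 tested, with 3 called higher in CA1 and 8 in DG (median -0.13). The guidance count was 1 under filterByExpr (of 11 tested) or in thinned replicates (of 27 tested) toward CA1, and 2 in thinned replicates (of 27 tested) and 3 with DESeq2, under filterByExpr (of 11 tested) or without CA1 replicate 2 and 4 without CA1 replicates 3 or 4 or DG replicate 3 and 5 without the filter on low counts or without DG replicate 2 toward DG.

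Genes of the presynaptic terminal were called in both directions. Cplx2, a complexin that clamps vesicle fusion, had 739, 332, 384 and 424 CPM in CA1 and 1170.3, 947, 903 and 1193 CPM in DG (log2 fold change -1.29 ± 0.18, adjusted p = 4.43e-10). Syt13, an atypical synaptotagmin, had 130.4, 77.4, 128 and 129 CPM in CA1 and 253, 309, 280.5 and 202 CPM in DG (log2 fold change -1.35 ± 0.27, adjusted p = 2.5e-05). Replicates of the regions did not overlap in Cplx2 or Syt13. Among 45 vesicle genes 41 were tested, with 3 called higher in CA1 and 7 in DG, Stxbp6 and Slc17a6 among them (median -0.20). Sv2c, a vesicle glycoprotein with 0 UMIs in CA1, was at least 6.38-fold higher in DG. Vesicle gene counts were 0 with DESeq2 and 1 in thinned replicates (of 35 tested) or without DG replicates 3 or 4 and 5 without DG replicate 1 toward CA1, and 4 with DESeq2 or under filterByExpr (of 30 tested) toward DG.

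Neuropeptide genes had 14 of 18 tested, with Cck, Nts and Sst called higher in CA1 and 3 genes in DG (median -0.14), and the granin Chgb was the most abundant and not called. The peptide count was 0 with DESeq2, in thinned replicates (of 10 tested) or without CA1 replicate 2 and 1 without the filter on low counts, under filterByExpr (of 5 tested) or without DG replicates 2 or 3 toward DG. Neurotrophin genes had 5 of 9 tested, with Bdnf and 1 other gene called higher in DG and 0 in CA1 (median -0.40). The neurotrophin count was 0 with DESeq2, in thinned replicates (of 5 tested) or without DG replicate 3 and 1 under filterByExpr (of 4 tested) or without CA1 replicates 1, 2 or 4 or DG replicate 1. Cx3cl1, the chemokine fractalkine made by neurons, was among the smallest p values toward CA1, with 1057, 962, 1015 and 978 CPM in CA1 and 276, 247, 239 and 339 CPM in DG (log2 fold change 1.84 ± 0.19, adjusted p = 6.92e-20). Every CA1 replicate was above every DG replicate in Cx3cl1.

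Transcription factors of excitatory neurons were called in both directions, 6 higher in CA1 and 8 in DG among 29 tested of 30 (median -0.44). Besides Pou3f1 and Neurod6, the CA1 side held Bcl11a, a zinc finger repressor, at 319, 536, 452 and 572 CPM in CA1 and 224, 254, 280.5 and 248 CPM in DG (log2 fold change 0.84 ± 0.21, adjusted p = 0.00129). Next to Prox1, the DG side held Rfx3, a winged-helix factor of ciliary genes, at 43.5, 71.9, 25.6 and 92.2 CPM in CA1 and 246, 397, 313 and 349 CPM in DG (log2 fold change -2.58 ± 0.30, adjusted p = 9.5e-16). Replicates of the regions did not overlap in Bcl11a or Rfx3. Mef2c, a MADS-box factor, and Id4, an inhibitor of basic helix-loop-helix factors, had log2 fold changes of -1.28 ± 0.21 and -1.71 ± 0.35. The count was 3 in thinned replicates (of 25 tested) toward CA1, and 4 in thinned replicates (of 25 tested) and 5 with DESeq2 or without CA1 replicates 1 or 4 or DG replicate 2 toward DG.

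Mitochondrially encoded genes had 13 of 15 tested, with 2 called higher in DG and 0 in CA1 (median -0.13). Their count toward DG was 0 with DESeq2, under filterByExpr (of 12 tested), in thinned replicates (of 13 tested) or without CA1 replicates 2 or 3 or DG replicate 1 and 1 with DESeq2 size factors, without the filter on low counts or without DG replicate 4 and 4 with corrected UMIs. The 2 called genes, mt-Nd5 and mt-Nd6, were called higher in CA1 of fresh-frozen HCl sections. mt-Rnr2, the large ribosomal RNA of mitochondria, had the most UMIs in both regions. Its counts in DG replicates 2 and 3 came to 98.5% and 90.2% of the 4096 sequences that 6 bases allow, a number that is no strict limit, since the same gene reached 4356 in other sections of the series. It was not called as counted (log2 fold change 0.03 ± 0.17, adjusted p = 0.949), and with counts corrected for UMIs drawn more than once, which assumes 4096 sequences, it was called higher in DG (log2 fold change -0.66, adjusted p = 0.00180, within 0.00180 to 0.989 over all settings run). Of 8 nuclear-retained RNAs 6 were tested, with Snhg11 and Meg3 called higher in CA1 and Malat1 in DG (median 0.09). Snhg11, a noncoding RNA of neurons, had 521, 862, 716 and 517 CPM in CA1 and 186, 420.0, 351 and 266 CPM in DG (log2 fold change 1.04 ± 0.19, adjusted p = 2.32e-06). Every replicate of the higher region was above the other region in Snhg11. Meg3, an imprinted noncoding RNA, was 1.52-fold higher in CA1 (adjusted p = 0.00783) but not called without CA1 replicate 2 (adjusted p = 0.103), within 5.81e-06 to 0.103 over all settings run. Malat1, a noncoding RNA of nuclear speckles, was 1.73-fold higher in DG (adjusted p = 0.00164) but not called with DESeq2 (adjusted p = 0.0975), in thinned replicates (0.173) or without CA1 replicate 3 (0.121), within 5.02e-06 to 0.173. The counts of these RNAs were 1 without CA1 replicate 2 toward CA1, and 0 with DESeq2, in thinned replicates (of 5 tested) or without CA1 replicate 3 toward DG.

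Pseudogenes stood among the largest differences, and counts of genes that share reads with a relative are uncertain. Gm28661, a pseudogene copy of mitochondrial sequence on chromosome 1, had 492, 569, 537 and 424 CPM in CA1 and 3869, 2872, 3424 and 3826 CPM in DG (log2 fold change -2.82 ± 0.18, adjusted p = 2.86e-50). Gm28437, beside it, had 782, 519.7, 699 and 756 CPM in CA1 and 4338, 3542, 3403 and 4835 CPM in DG (log2 fold change -2.65 ± 0.18, adjusted p = 7.66e-46). Both were higher in every DG replicate of fixed frozen sections. In fresh-frozen HCl sections both were called the other way, higher in CA1, as was Gm28437 in paraffin sections. The pair lies at chr1:24614885-24615565, - strand, and chr1:24613189-24613971, - strand. Gm16416, a processed pseudogene, had 0 UMIs in CA1 and 179, 94.4, 132 and 422 CPM in DG, at least 23.2-fold higher. Gm12816, also processed, had a ratio of DG over CA1 of 29.2, with a 95% interval from 7.90 to 244. Gm9701, processed as well, was higher in CA1 (log2 fold change 2.37 ± 0.36, adjusted p = 4.16e-09).

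The same regions had been taken from fresh-frozen sections permeabilized with TE or HCl and from fixed paraffin sections permeabilized with TE, 4 replicates of CA1 and 4 of DG in each, and the comparison asked which regional differences recur. Prox1 was called higher in DG in all of them, with log2 fold changes of -2.96 ± 0.17 in fresh-frozen TE, -3.16 ± 0.19 in fresh-frozen HCl and -1.94 ± 0.31 in paraffin sections. Wfs1 had 2.93 ± 0.23, 2.004 ± 0.27 and 0.53 ± 0.69 in the same order, with adjusted p values of 4.83e-12, 3.57e-07 and 0.821. Its difference between fixed frozen and paraffin sections was not called (1.78 ± 0.69, adjusted p = 0.362), nor was that of Prox1 (-1.71 ± 0.48, adjusted p = 0.0536). In fresh-frozen TE sections, where 1420 of 14011 genes were called (10.1%), 688 of 753 fixed frozen calls that were tested had the same direction (91.4%), against 64.3% of all genes tested in both. Called in the same direction were 436, or 57.1% of the fixed frozen calls and 30.7% of the calls there. In fresh-frozen HCl sections, with 2526 calls (17%), 657 of 753 had the same direction (87.3%, against 60.7% of all), and 427 were called alike (55.9% and 16.9% of the lists). In paraffin sections, with 295 calls (3.29%), 581 of 715 had the same direction (81.3%, against 60.3% of all), and 126 were called alike (16.5% and 42.7% of the lists). By direction, 217 of the 315 genes higher in CA1 and 219 of the 449 higher in DG were called alike in fresh-frozen TE sections, and 26 and 100 in paraffin sections.

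The difference from fresh-frozen TE sections, which share the permeabilization, was tested as an interaction of region and condition. It was called for 51 of 14566 genes (0.35%), with CA1 over DG larger in fixed frozen sections for 7 (0.0481%) and smaller for 44 (0.302%). Gm29216 had 304, 381, 367 and 387 CPM in fixed frozen CA1 and 1856, 1332, 1745 and 1889.9 CPM in fixed frozen DG. In fresh-frozen TE sections it had 1935, 1731, 1563 and 2010.2 CPM in CA1 and 38.6, 34.1, 33.6 and 27.2 CPM in DG, so its direction was opposite (difference -8.07 ± 0.28, adjusted p = 4.68e-98). Gm13340, another mitochondrial pseudogene, was also called in opposite directions (difference -5.01 ± 0.25, adjusted p = 2.11e-58), and Rpl37rt, a pseudogene of a ribosomal protein gene, had a difference of 4.34 ± 0.35, adjusted p = 1.37e-26. Pcp4 was -2.37 ± 0.20 in fixed frozen and -1.01 ± 0.16 in fresh-frozen TE sections (difference -1.40 ± 0.27, adjusted p = 0.000413), a call lost in thinned replicates (adjusted p = 0.605), within 3.75e-10 to 0.605 over all settings run. In all, 6 genes were called in opposite directions in fixed frozen and fresh-frozen TE sections, Gm29216, Gm13340 and Enpp2 among them. Against fresh-frozen HCl sections there were 25 such genes and against paraffin sections 6. The total of 51, with its 7 and 44, was 23 with DESeq2 (6 and 17), 26 with DESeq2 size factors (9 and 17), 28 under filterByExpr (6 and 22), 9 in thinned replicates (4 and 5), 34 without CA1 replicate 2 (2 and 32), 32 without CA1 replicate 4 (5 and 27), 25 without DG replicate 1 (2 and 23), 35 without DG replicate 3 (4 and 31) and 41 without DG replicate 4 (4 and 37).

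Enpp2, which makes lysophosphatidic acid, was called in opposite directions. Enpp2 had 420.1, 575, 273 and 369 CPM in CA1 and 134, 189, 186 and 147 CPM in DG of fixed frozen sections, and 558, 574, 590.2 and 861 CPM and 1883, 1438, 2100.4 and 214 CPM in fresh-frozen TE sections, where DG replicate 4 was far below the other DG replicates (difference 2.34 ± 0.30, adjusted p = 5.73e-11), and the call was lost with DESeq2 (adjusted p = 0.0888), within 2.18e-24 to 0.0888 over all settings run. Genes of choroid plexus and ependyma had the same order over those DG replicates. Summed over 8 listed genes they had 36.7, 97.9, 71.6 and 356 CPM in CA1 and 2596, 2171, 2672 and 61.1 CPM in DG of fresh-frozen TE sections, again low in DG replicate 4, against 0, 22.1, 42.6 and 18.4 CPM and 22.4, 26.0, 37.1 and 27.5 CPM in fixed frozen sections. Ttr, which carries thyroid hormone, was the most abundant, 3 of 5 tested were called higher in DG of fresh-frozen TE sections and 0 in CA1, and Kcnj13, Folr1 and Clic6 were at 0 UMIs in both regions of fixed frozen sections. Their part in the difference of Enpp2 was not tested.

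**Figure D4:**
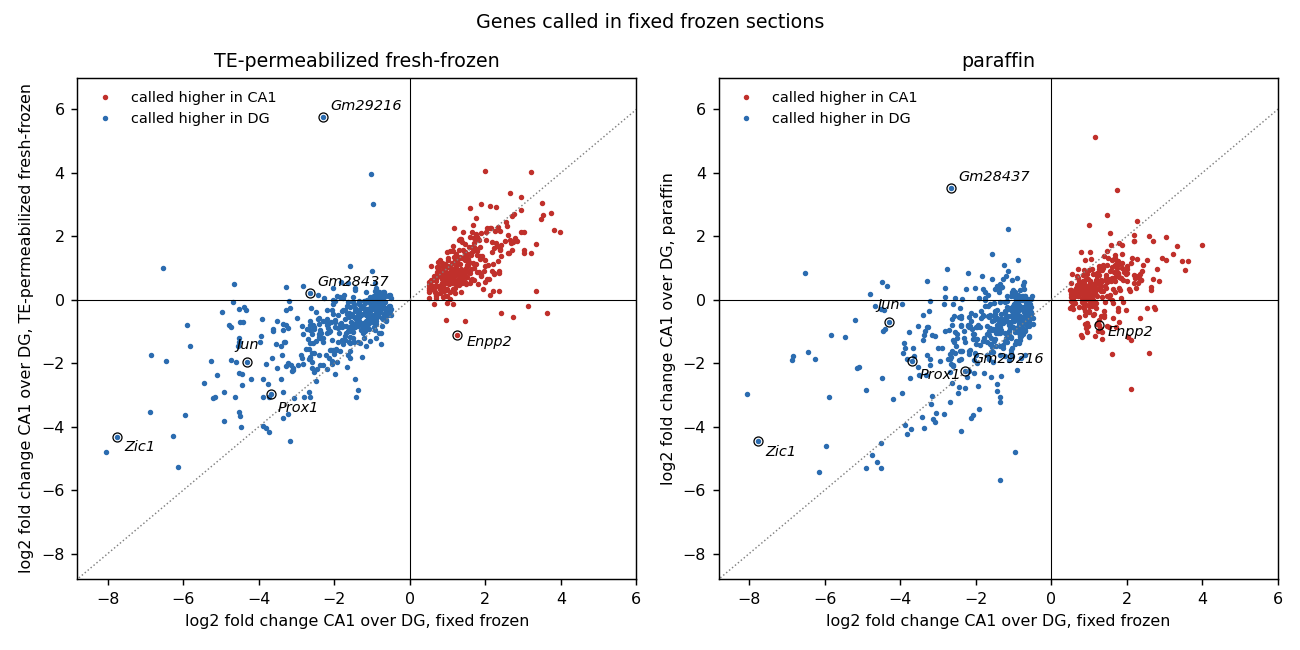
Log2 fold change of CA1 over DG in fixed frozen sections against that in fresh-frozen TE and in paraffin sections, for genes called in fixed frozen sections, with a dotted line at equal values. Of these genes, 91.4% have the same direction in fresh-frozen TE and 81.3% in paraffin sections.

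Against paraffin sections, which share the fixation, the interaction was called for 81 of 11250 genes (0.72%), 41 with a larger (0.364%) and 40 with a smaller (0.356%) CA1 over DG in fixed frozen sections. Mal was 2.94 ± 0.22 in fixed frozen and 1.30 ± 0.25 in paraffin sections (difference 1.65 ± 0.34, adjusted p = 0.000434), a call lost with DESeq2 (adjusted p = 0.0930), within 1.82e-06 to 0.0930 over all settings run. In paraffin sections it had 1089, 1188, 593 and 751 CPM in CA1 and 630.5, 365, 233 and 140.0 CPM in DG, and 1 DG replicate was above the lowest CA1 replicate. Fa2h (difference 2.24 ± 0.43, adjusted p = 0.000111) and Cx3cl1 (1.54 ± 0.35, adjusted p = 0.00337) were also further toward CA1 in fixed frozen sections. Mog, a myelin surface protein, had a difference of 2.34 ± 0.40, adjusted p = 6.08e-06, a call lost without CA1 replicate 2 (adjusted p = 0.0964), within 2.1e-07 to 0.0964 over all settings run. Mef2c lay the other way, at -1.28 ± 0.21 in fixed frozen and 0.65 ± 0.25 in paraffin sections (difference -1.91 ± 0.34, adjusted p = 1.14e-05). Gm28437 and Marchf6, a ubiquitin ligase of the endoplasmic reticulum, were called higher in DG of fixed frozen and in CA1 of paraffin sections (differences -6.16 ± 0.31, adjusted p = 4.44e-84, and -3.35 ± 0.45, adjusted p = 2.52e-10). Tuba1b, an alpha tubulin, had 72.4, 166, 76.7 and 73.8 CPM in CA1 and 74.5, 143, 140.2 and 82.6 CPM in DG of fixed frozen sections and 21.3, 36.0, 70.6 and 0 CPM and 800.0, 960.2, 713 and 809 CPM in paraffin sections (difference 4.28 ± 0.53, adjusted p = 2.31e-12), a call lost in thinned replicates (adjusted p = 0.108), within 2.61e-14 to 0.108. The total of 81, with its 41 and 40, was 59 with DESeq2 (24 and 35), 22 in thinned replicates (12 and 10) and 61 without CA1 replicate 2 (26 and 35).

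CA3 of fixed frozen sections, in 4 further replicates, is set beside CA1 and DG as values only, since every comparison with it would share samples. Wfs1 had 20.4, 14.1, 7.83 and 0 CPM in CA3 replicates 1 to 4 and Pou3f1 30.6, 28.2, 47.0 and 37.9 CPM, while Neurod6 had 621, 536, 736 and 511 CPM. For Wfs1 and Pou3f1 the means were 10.6 ± 8.71 and 35.9 ± 8.44 CPM in CA3 (SD, n = 4), against 306 ± 131 and 371 ± 50.8 CPM in CA1. Prox1 had 50.9, 106, 78.3 and 37.9 CPM and C1ql2 40.7, 56.5, 7.83 and 18.9 CPM in CA3. Summed myelin genes reached 5509.9, 6557, 7233 and 4015 CPM in CA3, and summed thalamic and habenular genes 591, 1179, 571 and 833 CPM, both between the levels of CA1 and DG on average. Dsp, at 0 UMIs in CA1, had 10.2, 35.3, 15.7 and 0 CPM in CA3, and Prkcd had 102, 162, 117 and 208 CPM.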

How the data were processed

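UMI counts per gene and replicate were used as the authors deposited them. The authors had made these counts from barcoded reads with UMI-tools 1.0.0, aligned to GRCm38 with HISAT2 2.1.0 and assigned with featureCounts 1.6.4, and tested regions with DESeq2 1.20.0. The annotation release was not stated, so gene positions were taken from GENCODE M21, and 773 genes without a symbol kept their identifiers. CPM were computed from the counts.

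Genes with at least 10 UMIs over the replicates compared were tested with the quasi-likelihood F test of edgeR 4.0.16 in R 4.3.3, with TMM factors and Benjamini-Hochberg adjustment over all tested genes, and called at an adjusted p under 0.05. The SE of a log2 fold change is its size divided by the square root of F. Interactions were tested over 16 replicates. The biological coefficient of variation was 0.155, and the smallest called difference was 0.48 on the log2 scale. Alternatives were DESeq2 1.42.0, DESeq2 size factors in edgeR, no filter, filterByExpr, CA3 replicates in the fit, the replicate number as a block, replicates thinned to 54201 UMIs (35932 with paraffin sections) with and without the block, counts corrected for UMIs of 6 bases drawn more than once, and leaving out each replicate.

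The genes named were the 6 markers and reference genes Wfs1, Ociad2, Dkk3, Prox1, Pdzd2 and Gapdh, the 12 called genes per direction with the largest fold among those without overlap and with at least 40 UMIs in the higher region, the 8 per direction with the smallest p, called members of 36 gene lists and uncalled members that define a list or are its most abundant, the 5 per direction with the smallest p of each interaction, the 5 genes with the most UMIs among those at 0 in the other region, and the 3 most abundant per region. Members and lists were chosen with earlier results of these data known. The symbols Nov, Pvrl3, Igf2, Gabra6, Chrm4, Drd3 and Scn2a1 of the lists were not analysed. Of the 9 symbols of the neurotrophin list 8 were in the table, and the other was not analysed either. Numbers were handled with Python 3.11.15, pandas 2.3.3, numpy 2.4.6 and scipy 1.17.1, and drawn with matplotlib 3.10.9.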

Additional observations from a re-analysis of the deposited data

Results flagged for a closer look

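Values from 132 groups of 4 replicates were looked at, and in 11 of them 1 replicate lay far from the other 3. Chance flags about 1 in 20 groups, or 6.60 here. On the CA1 side, C1ql2 and Lrrtm4 had UMIs in replicate 1 alone (14.5 CPM each), Ppp3r1 was lowest in replicate 1 (724 CPM) and Syt13 in replicate 2 (77.4 CPM). CA1 replicate 2 was also far above the others in Sox11 (99.5 CPM), in Tuba1b (166 CPM) and in the summed oligodendrocyte and myelin genes (20224 CPM). On the DG side, replicate 4 was highest in Cldn11 (394 CPM) and Egr1 (138 CPM) and lowest in Prox1 (486 CPM), and replicate 1 was lowest in Sema5a (373 CPM). The cause of these values was not tested.

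Named genes whose CA1 to DG difference was called different from that in fresh-frozen TE sections are given with the interaction as a log2 value, positive where CA1 over DG was larger in fixed frozen sections, followed by how many of 13 alternatives kept the call. Above 0 were Cldn11 (1.00, 7), Enpp2 (2.34, 12), Qk (0.97, 7) and Rpl37rt (4.34, 13). Below 0 were Gm13340 (-5.01, 13), Gm28437 (-2.89, 13), Gm28661 (-3.28, 13), Gm29216 (-8.07, 13), Jun (-2.46, 4), Mef2c (-1.06, 5), Napepld (-6.30, 6), Neto1 (-3.56, 2), Pcp4 (-1.40, 12) and Rora (-1.93, 11), where Napepld rests on 0 UMIs in fixed frozen CA1. The largest adjusted p over the alternatives was 0.963 for Neto1 (-0.87) and 0.928 for Napepld (-2.37), each in thinned replicates. It was 0.808 for Mef2c and 0.746 for Jun, and Napepld was at -3.70 with DESeq2. Without CA1 replicate 2, Cldn11 (0.67, adjusted p = 0.414) and Qk (0.70, adjusted p = 0.314) were not called, and Cldn11 was also lost with DESeq2 and under filterByExpr.

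Against paraffin sections, given the same way, genes of myelin and others above 0 were Calm2 (1.08, 7), Cldn11 (1.33, 11), Cnp (1.54, 10), Cx3cl1 (1.54, 13), Enpp2 (2.07, 11), Fa2h (2.24, 13), Mag (2.04, 10), Mal (1.65, 12), Mobp (1.53, 9), Mog (2.34, 12), Nr4a2 (2.19, 12), Opalin (1.77, 7), Qk (1.30, 11) and Tuba1b (4.28, 12). Below 0 were Gm13340 (-1.65, 13), Gm28437 (-6.16, 13), Gm28661 (-3.17, 13), Jun (-3.56, 12), Marchf6 (-3.35, 13), Mef2c (-1.91, 13) and Ncald (-2.06, 12). Calls lost without CA1 replicate 2 were, with their values there, Calm2 (1.06, adjusted p = 0.0729), Cldn11 (1.01, adjusted p = 0.115), Cnp (1.05, adjusted p = 0.226), Mag (1.62, adjusted p = 0.149), Mobp (0.77, adjusted p = 0.547), Mog (1.57, adjusted p = 0.0964), Opalin (1.03, adjusted p = 0.641) and Qk (1.05, adjusted p = 0.0922). Section handling, library and outline differ between the conditions, fixation differs from the fresh-frozen sections only, and their parts were not tested.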

How the results depend on the processing

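All 100 named genes called between CA1 and DG kept their direction wherever they were tested. They also kept their call in 90 of 94 tested cases with DESeq2, 98 of 100 with DESeq2 size factors, 96 of 100 without the filter, 75 of 76 under filterByExpr, all 100 with CA3 in the fit, 98 of 100 with corrected UMIs and 79 of 91 in thinned replicates, and in 93 to 98 without 1 replicate.

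The 764 calls, 315 toward CA1 and 449 toward DG, became 392, 198 and 194 with DESeq2, 501, 261 and 240 under filterByExpr, which tests fewer genes, and 300, 140 and 160 in thinned replicates, which hold fewer UMIs. DESeq2 gave an adjusted p for 681 of the 764. Leaving out 1 replicate gave 519 to 696 calls, 199 to 324 toward CA1 and 320 to 405 toward DG. Differences called against fresh-frozen TE sections were 51, and 23 with DESeq2, 26 with DESeq2 size factors, 28 under filterByExpr, 9 in thinned replicates and 25 to 41 without 1 replicate. Those against paraffin sections were 81, and 22 in thinned replicates and 61 to 93 without 1 replicate. For DESeq2 and the left-out replicates the cause was not tested.

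Same-numbered replicates of CA1 and DG had correlations of 0.0854, 0.252, 0.116 and 0.125 over 4084 genes after group means were removed, and 7 of the 8 samples correlated best with their own number, a hint from the data and not from the design. Not every pair was over 0.1, so the numbers were not taken to pair the samples. With the number as a replicate block the calls were 883, 361 toward CA1 and 522 toward DG, in thinned replicates 358, 176 and 182, and the differences called were 155 from fresh-frozen TE (20 larger and 135 smaller) and 120 from paraffin sections (71 larger and 49 smaller). The block gave 4 calls toward DG among mitochondrially encoded genes, 2 among interneuron genes and 2 among GABA-A receptor subunits. It gave 0 toward DG among AMPA and NMDA receptor subunits, meningeal genes and genes shared by CA1 and CA3 pyramidal cells. Toward CA1 it gave 8 among genes for calcium binding and CaM kinases and 4 among AMPA and NMDA receptor subunits. Kainate receptor genes and metabotropic glutamate receptors had 1 each toward CA1. With the block 96 of 100 named calls were kept, all but those of Col1a2, Fos, Grin2d and Spock1. In thinned replicates with the block 78 of 91 were kept, and Sv2c, called there without the block, was not (adjusted p = 0.0530).

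Of the 764 called genes, 1 changed sign in thinned replicates, with or without the block. The named genes that changed sign were not called as reported. For mt-Rnr2 it was -0.66 with corrected UMIs, a correction that assumes 4096 UMIs where counts in other sections exceed that number, and -0.0800 to 0.183 without 1 replicate. Tuba1b was at 0.0900 in thinned replicates, 0.0713 there with the block and -0.720 to 0.0166 without 1 replicate, and Gapdh at -0.173 to 1.24 without 1 replicate. The cause was not tested for Tuba1b or Gapdh. Total UMIs were 1.88 times as high in DG as in CA1 (1.54 to 2.47 without 1 replicate), and genes under 10 UMIs in all were not tested. Detected genes were 1.21 times as many in DG, 1.03 times in thinned replicates and 1.47 times at 5 UMIs or more.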
